A study of Mus musculus with 12 samples.

Results

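The reabsorption of filtered amino acids rests on carriers of the proximal tubule, and the 10 genes described here, picked by symbol from the 23420 genes of the count table, encode carriers on both faces of that epithelium. On the apical face, Slc6a19 encodes B0AT1, the main sodium-dependent carrier of neutral amino acids, and Slc6a18 encodes a related carrier. Slc3a1 (rBAT) is the heavy chain that pairs with the light chain of Slc7a9 to take up cystine and basic amino acids, and mutations of either cause cystinuria. Slc7a13 encodes a further light chain, which pairs with rBAT in the late proximal tubule. On the basolateral face, Slc3a2 (4F2hc) is the heavy chain of Slc7a7 (y+LAT1, the exit of basic amino acids, mutated in lysinuric protein intolerance), Slc7a8 (LAT2, an exchanger of neutral amino acids) and Slc7a5 (LAT1, an exchanger of large neutral amino acids typical of growing cells). Slc1a5 encodes ASCT2, an exchanger of glutamine and other small neutral amino acids. The rule used symbols and no measured value, but the members were chosen with earlier results of these data known. All 10 genes passed the filter on low counts.

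The kidneys came from male C57BL/6J mice, young adults by the study's methods, with 4 kidneys in each of 3 groups. Control kidneys were obtained at nephrectomy, and the other 8 were taken 24 h after renal ischemia, for which the labels give 20 min (the same text stands on the control samples). For the ischemic kidneys, title and group field disagree. Group A is titled anaesthetised with a group field of conscious, group B is titled conscious with a group field of anaesthetised, and no direction is therefore assigned to anaesthesia. By the study's methods even conscious mice were briefly sedated with isoflurane to close and to release the clamp, anaesthetised mice received ketamine and xylazine, and all were anaesthetised with this mixture for tissue collection. The study's methods also describe surgery to place the clamp, with buprenorphine, at least 24 h before ischemia. Whether the controls had the same surgery is not stated. If they did not, its effect and that of ischemia cannot be told apart against control. Whether the control kidneys came from separate animals is not stated, so the p-values measure the spread between these kidneys.

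Total counts lay between 15367342 and 44793350 per kidney, and 3 counts correspond to between 0.067 and 0.195 CPM. All 8 proximal tubule markers (among them Lrp2, Slc34a1, Slc5a2 and Miox) were high in the controls, with a summed level of 6456 to 7240 CPM, and all 8 fell in each ischemic group, to summed levels of 681 to 1307 CPM in group A and 397 to 1321 CPM in group B. In whole kidney RNA, fewer proximal tubule cells and less mRNA per cell cannot be told apart. Other segments were not uniform. Slc12a1 of the thick ascending limb fell, from 1442 to 1543 CPM in the controls to 161.1 to 194.7 CPM in group A, and to 126.6 to 188.3 CPM in 3 kidneys of group B and 542.3 CPM in replicate 4. Slc4a1, listed here for the collecting duct, fell 4.38-fold and 7.87-fold, and which cells its transcripts came from was not tested. Umod, Slc12a3, Aqp2, Aqp3 and Atp6v1g3 did not pass in either ischemic group. Pvalb of the distal convoluted tubule averaged 2.03 CPM in the controls and was at the floor in both ischemic groups, with an edgeR adjusted p of 0.111 in group A and 0.0327 in group B. The part of these changes in the transporter results was not tested. Of the 6 leukocyte markers in the table, Csf1r carried most of the summed level and fell. Its level was 51.4 ± 7.82 CPM (SD, n = 4) in control kidneys, 13.6 ± 5.35 in group A and 10.6 ± 6.70 in group B. Ptprc (1.61 to 6.13 CPM in the controls, 1.48 to 6.68 in group A and 0 to 11.6 in group B) and Cd68 (0 to 1.61, 0 to 2.37 and 0 to 8.92 CPM) overlapped between all groups and did not pass the test, and Lyz2, S100a8 and S100a9 were too low to be tested. Adipoq and Plin1 of fat were at the floor in every group, as were Cyp11a1 and Cyp11b1 of the adrenal and the red cell transcript Hba-a1. Star of the adrenal was at 0 in the controls but had 58 and 26 counts in 2 kidneys of group A and 23 counts in 1 of group B. Alas2 of red cell precursors had 1.18 to 5.38 CPM in the controls, 0 to 0.58 CPM in group A (edgeR adjusted p = 0.311) and 0 in group B, where it was called lower (edgeR adjusted p = 0.0266). Havcr1 and Lcn2, which injured tubules express, were at the floor in the controls and rose in each ischemic group, to summed levels of 8.55 to 35.1 CPM in group A and 9.73 to 51.1 CPM in group B.

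After ischemia, 6 of the 10 transporters fell in each ischemic group, 1 rose in each ischemic group, and the remaining 3 did not pass the test. The genes that fell were Slc6a19, Slc3a1, Slc7a9, Slc7a13, Slc7a7 and Slc7a8, and the gene that rose was Slc7a5. Slc6a18, Slc3a2 and Slc1a5 did not pass. These calls rest on edgeR's quasi-likelihood test at a threshold of 0.05 on the adjusted p. Of all 11664 genes tested, 22.3% were called in group A, 11.7% as lower and 10.5% as higher, and 22.8% in group B, 11.9% as lower and 10.9% as higher. The 1 rise among 10 genes is a share near this background. Because the 10 genes were chosen with earlier results of these data known, the comparisons with all genes are descriptive. The median log2 fold change of the 10 genes was -1.96 in group A and -1.41 in group B, beside -0.02 over all genes tested in either comparison. The same 4 control kidneys enter both comparisons. The kidneys did not overlap with the controls for 7 of the 10 genes in each ischemic group, the 7 that passed, against 28.5% of all genes tested in group A and 26.8% in group B. The summed level of the 10 transporters was 533 to 627 CPM in the controls, 175 to 225 CPM in group A and 209 to 316 CPM in group B.

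**Figure D1:**
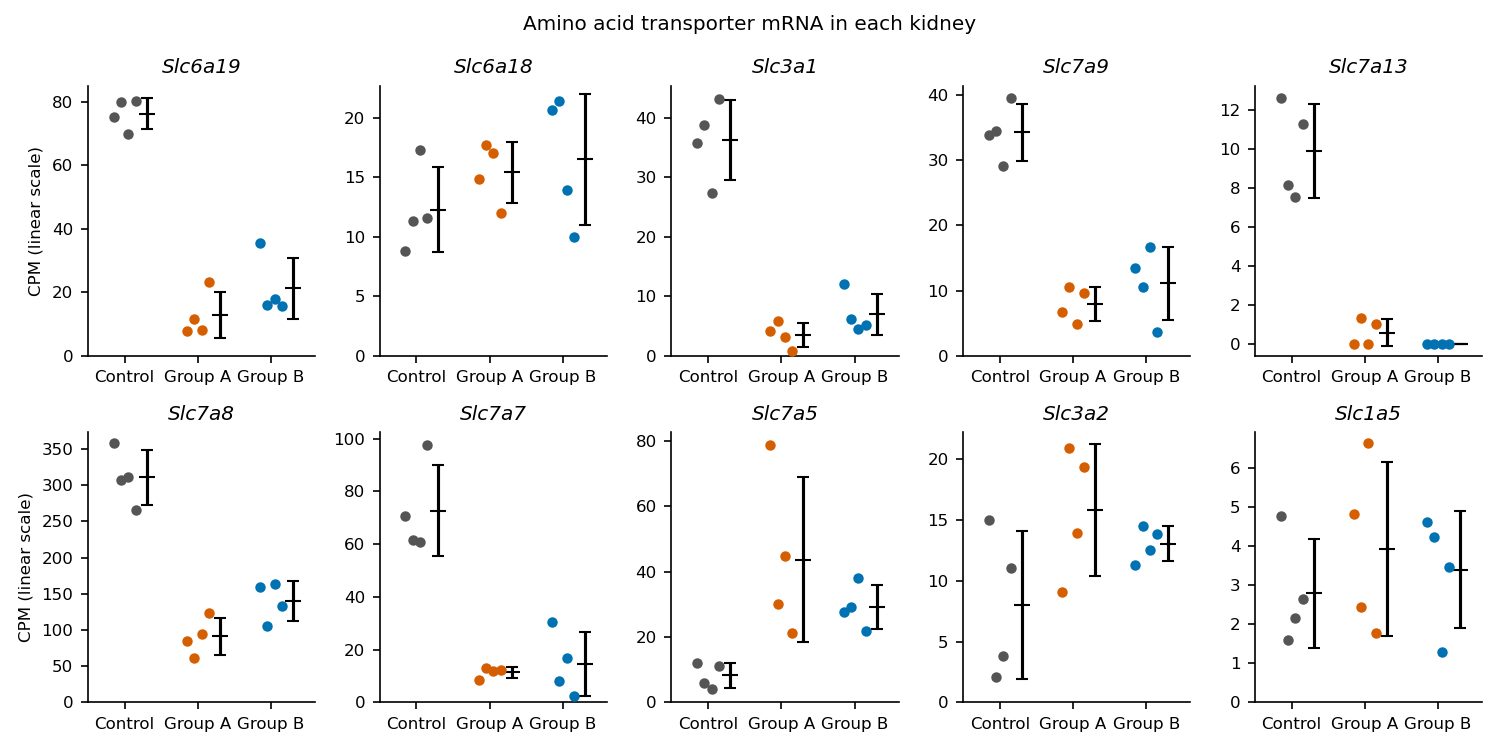
Level of each transporter in every kidney, in CPM on a linear axis that differs between panels, for the control, group A and group B kidneys (points) with the mean and SD of the group (n = 4). Every ischemic kidney lies below every control kidney for Slc6a19, Slc3a1, Slc7a9, Slc7a13, Slc7a8 and Slc7a7, and above every control kidney for Slc7a5.

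Windows around the start site (250 bases before to 50 after) of 4 transporters are shown, because they cover both heavy chains and 2 of the apical carriers that fell: Slc3a1, its light chain Slc7a9 and Slc6a19 fell, whereas Slc3a2, the other heavy chain, did not pass the test. They are RefSeq sequences of GRCm38.p6, 5′ to 3′ on the strand of the gene. The start sites are those of RefSeq, and for Slc6a19 and Slc3a2 they lie 12229 and 9472 bases inside the gene as GENCODE M21 bounds it, so these windows are internal starts, whereas those of Slc3a1 and Slc7a9 lie at -29 and 296 bases relative to its gene start. Capitals mark the 2 motifs found, CAAAGTCCA (specific to the liver and kidney factor HNF4) and the sequence GTTAAT recognised by HNF1 (part of its palindrome), each searched on both strands.
Slc3a1, chr17:85028097-85028396, plus strand: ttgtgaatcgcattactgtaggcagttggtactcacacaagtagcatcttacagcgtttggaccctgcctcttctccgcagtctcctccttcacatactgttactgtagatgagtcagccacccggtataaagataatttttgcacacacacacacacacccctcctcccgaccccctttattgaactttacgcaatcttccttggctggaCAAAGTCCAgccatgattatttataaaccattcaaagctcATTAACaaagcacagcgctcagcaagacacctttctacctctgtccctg
Slc7a9, chr7:35448842-35449141, plus strand: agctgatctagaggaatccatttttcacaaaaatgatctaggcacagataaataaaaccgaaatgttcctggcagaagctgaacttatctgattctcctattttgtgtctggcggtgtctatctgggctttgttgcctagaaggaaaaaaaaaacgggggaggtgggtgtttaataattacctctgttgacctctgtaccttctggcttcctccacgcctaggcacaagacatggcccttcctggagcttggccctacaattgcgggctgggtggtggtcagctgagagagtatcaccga
Slc6a19, chr13:73692587-73692886, minus strand: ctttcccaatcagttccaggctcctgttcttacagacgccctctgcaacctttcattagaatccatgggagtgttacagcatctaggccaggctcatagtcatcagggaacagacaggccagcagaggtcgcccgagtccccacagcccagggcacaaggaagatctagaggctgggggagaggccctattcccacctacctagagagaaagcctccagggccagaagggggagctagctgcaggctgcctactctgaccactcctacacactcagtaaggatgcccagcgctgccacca
Slc3a2, chr19:8713848-8714147, minus strand: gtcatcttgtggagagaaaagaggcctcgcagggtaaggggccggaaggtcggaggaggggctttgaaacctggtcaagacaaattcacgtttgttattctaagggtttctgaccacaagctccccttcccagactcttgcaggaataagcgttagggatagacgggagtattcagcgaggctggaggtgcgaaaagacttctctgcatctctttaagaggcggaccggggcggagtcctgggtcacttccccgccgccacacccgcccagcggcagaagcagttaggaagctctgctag

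The table of start sites matched 6 of the 10 transporters with 11 windows. The Slc3a1 window held CAAAGTCCA from base -39 and GTTAAT (on the opposite strand) from base 2, counted from the start site, and the motifs do not overlap. Of all 32851 windows in the table, 0.475% held CAAAGTCCA and 7.1% held GTTAAT. The element TGATGNAA, to which ATF4 and C/EBP factors bind, was in 3.97% of all windows and in 2 of the 5 windows of Slc7a7, which overlap each other, but not in those printed here. Another window of Slc7a7 held GTTAAT from base -86. These are matches of letters within a window, not sites shown to be bound.

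Slc6a19 lies on chromosome 13 of mm10 from 73679745 to 73704865 and Slc6a18 next to it from 73661752 to 73678023, both on the minus strand, with 1721 bases and no other coding gene between them. Slc6a19 had 75.2, 80.0, 69.8 and 80.2 CPM in the controls, 7.90, 11.7, 8.17 and 23.3 CPM in group A, and 35.7, 15.96, 17.8 and 15.8 CPM in group B. The controls were close together, with a coefficient of variation of 6.45%, and every ischemic kidney lay below them (exact two-sided permutation p = 0.0286 in either group). The log2 fold change was -2.6047 (standard error 0.35, edgeR adjusted p = 1.20e-05) in group A and -1.86 (standard error 0.34, edgeR adjusted p = 3.67e-04) in group B, that is, 6.08-fold and 3.62-fold lower.

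The neighbouring carrier did not pass the test. Slc6a18 had 8.79, 11.4, 17.2 and 11.6 CPM in the controls, 14.8, 17.7, 17.01 and 12.01 CPM in group A, and 20.6, 21.4, 13.9 and 9.96 CPM in group B. The 3 groups overlapped, and its log2 fold change was 0.30 (standard error 0.35, edgeR adjusted p = 0.666) in group A and 0.41 (standard error 0.35, edgeR adjusted p = 0.495) in group B. Within a kidney, the log2 ratio of Slc6a18 to Slc6a19 was -2.63 ± 0.45 (SD, n = 4) in the controls, 0.38 ± 0.89 in group A and -0.34 ± 0.53 in group B, without overlap between the controls and either ischemic group (exact permutation p = 0.0286 for each). Of the summed CPM per kb of these carriers, Slc6a18 held 15.4% ± 4.47 (SD, n = 4) in the controls, 59.6% ± 15.4 in group A and 47.1% ± 9.34 in group B. The antisense gene Slc6a19os overlaps Slc6a19, and since the strand setting of the counting is not stated, reads of these genes cannot be told apart.

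B0AT1 reaches the apical membrane of the tubule with the help of collectrin, encoded by Tmem27. Tmem27 had 72.6 to 111.7 CPM in the controls, 7.99 to 18.2 CPM in group A and 10.2 to 25.3 CPM in group B. The log2 fold change was -2.99 (standard error 0.33, edgeR adjusted p = 1.19e-06) in group A and -2.40 (standard error 0.32, edgeR adjusted p = 1.38e-05) in group B.

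The pair that takes up cystine fell together. Slc3a1 (chromosome 17, 85028376 to 85064236, plus strand) had 35.7, 38.7, 27.4 and 43.2 CPM in the controls, 4.12, 5.86, 3.22 and 0.833 CPM in group A, and 12.1, 6.21, 4.59 and 5.21 CPM in group B. Its fall was 10.5-fold in group A (log2 fold change -3.39, standard error 0.48, edgeR adjusted p = 2.56e-05) and 5.20-fold in group B (-2.38, standard error 0.46, edgeR adjusted p = 6.88e-04). Prepl, on the opposite strand, overlaps the end of Slc3a1. Slc7a9 (chromosome 7, 35448796 to 35466036, plus strand) had 33.8, 34.4, 29.0 and 39.5 CPM in the controls, 6.71, 10.6, 4.96 and 9.64 CPM in group A, and 13.5, 10.5, 16.7 and 3.64 CPM in group B. The light chain was thus 4.37-fold lower in group A (log2 fold change -2.13, standard error 0.40, edgeR adjusted p = 4.69e-04) and 3.12-fold lower in group B (-1.64, standard error 0.39, edgeR adjusted p = 0.0040). For each gene all 8 ischemic kidneys were below all 4 controls (exact permutation p = 0.0286 per ischemic group).

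In the controls the log2 ratio of Slc7a9 to Slc3a1 lay between -0.17 and 0.08. In group A the ratio was between 0.55 and 2.93, above every control, with a difference of 1.30 (exact permutation p = 0.0286). The highest value was that of group A replicate 4, in which Slc3a1 had 14 counts and Slc7a9 162. In group B the ratio ran from -0.46 to 1.76 and overlapped the controls (exact permutation p = 0.314).

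Slc7a13, the light chain of the late proximal tubule, had the lowest mean level of the 10 transporters in each ischemic group, although in group A replicate 4 it was above Slc3a1, and in replicates 2 and 4 above Slc1a5 per length. The gene lies on chromosome 4 from 19818725 to 19842218 (plus strand). It had 256, 319, 202 and 439 counts in the controls, 0, 31, 0 and 17 counts in group A, and 1, 0, 0 and 0 counts in group B. In CPM the controls held 7.54 to 12.6, the group A kidneys 0 to 1.35, and the group B kidneys 0 to 0.033, so that no ischemic kidney reached the lowest control. Group B was at the floor in every kidney. Pooled over the kidneys of a group, the level per total count was 23.4 times higher in the controls than in group A (95% exact interval 17.6 to 32.0) and 792 times higher than in group B (142 to 31300), intervals that cover counting error only. The first ratio rests on the counts of 2 kidneys and became 53.0 without group A replicate 2 and 14.4 without replicate 3, and the second rests on a single count. The edgeR adjusted p was 6.08e-04 in group B and 0.0301 in group A. The call in group A was lost whenever any single control was left out, with edgeR adjusted p between 0.0508 and 0.0812.

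**Figure D2:**
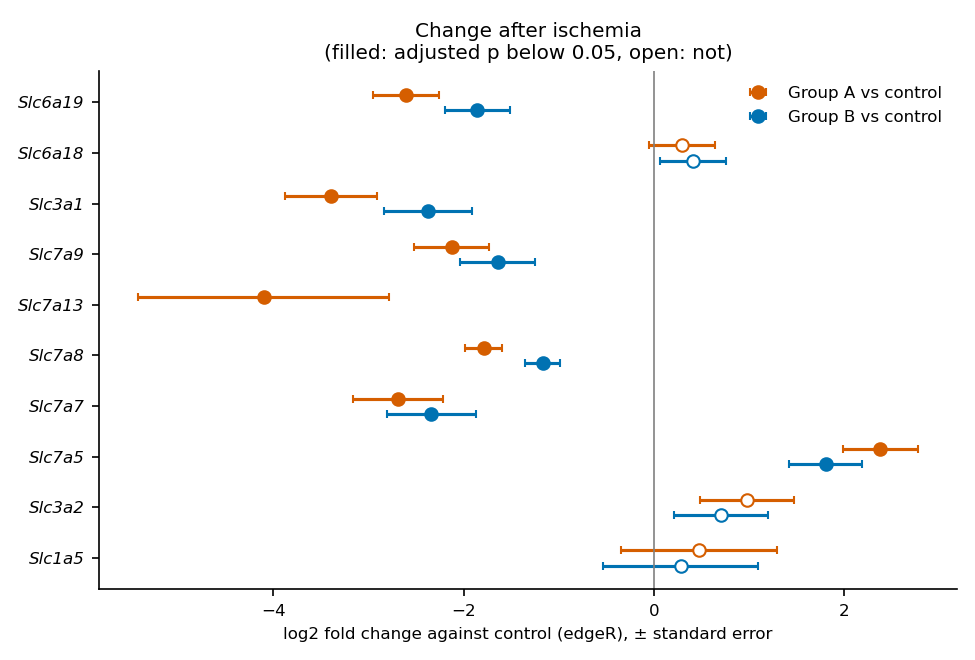
Log2 fold change of each transporter against control in group A and group B, fitted by edgeR, with bars of 1 standard error (filled points passed the threshold, open points did not). Slc7a13 in group B is not drawn, because that group was at the floor in all 4 kidneys. Slc7a5 alone lies to the right of 0 among the filled points.

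On the basolateral face, Slc7a8 was the most abundant of the 10 transporters per length in every group. The gene (chromosome 14, 54722209 to 54781946, minus strand) had 358.1, 307.9, 311.0 and 266.4 CPM in the controls, 84.9, 61.6, 94.3 and 123.6 CPM in group A, and 159.6, 104.9, 163.9 and 132.7 CPM in group B. Its log2 fold change was -1.79 (standard error 0.19, edgeR adjusted p = 7.10e-07) in group A and -1.17 (standard error 0.19, edgeR adjusted p = 9.65e-05) in group B, the smallest fall among the 6 genes that fell, in each ischemic group. Slc7a7 (chromosome 14, 54369442 to 54417780, minus strand) had 70.7, 61.5, 61.0 and 97.5 CPM in the controls, 8.47, 13.1, 11.9 and 12.3 CPM in group A, and 30.3, 7.95, 16.8 and 2.603 CPM in group B. The group A kidneys were alike, with a coefficient of variation of 17.8%, whereas those of group B differed widely, with 83.9%. The log2 fold change was -2.69 (standard error 0.47, edgeR adjusted p = 2.45e-04) in group A and -2.34 (standard error 0.47, edgeR adjusted p = 8.36e-04) in group B. Without group B replicate 1 the latter was -3.03. Oxa1l, on the opposite strand, overlaps the end of Slc7a7.

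Slc7a5 moved the other way. The gene (chromosome 8, 121881150 to 121907694, minus strand) had 12.1, 5.98, 4.11 and 11.1 CPM in the controls, 78.9, 30.1, 44.9 and 21.1 CPM in group A, and 27.7, 29.2, 38.2 and 21.9 CPM in group B. All 8 ischemic kidneys exceeded all controls (exact permutation p = 0.0286 for each ischemic group). The rise was 5.21-fold in group A (log2 fold change 2.38, standard error 0.39, edgeR adjusted p = 1.38e-04) and 3.49-fold in group B (1.80, standard error 0.39, edgeR adjusted p = 0.00167). The gene model Gm20388 spans this gene on the opposite strand.

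The heavy chain of these exchangers did not pass the test. Slc3a2 (chromosome 19, 8706882 to 8723369, minus strand) had 15.03, 2.07, 3.81 and 11.01 CPM in the controls, 9.08, 20.9, 13.95 and 19.3 CPM in group A, and 11.3, 14.5, 12.5 and 13.9 CPM in group B. The controls were the most scattered group, with a coefficient of variation of 76.3%, and they overlapped both ischemic groups. The log2 fold change was 0.98 (standard error 0.49, edgeR adjusted p = 0.185) in group A and 0.70 (standard error 0.49, edgeR adjusted p = 0.375) in group B. Slc1a5 (chromosome 7, 16781340 to 16798274, plus strand) was the lowest transporter per length in the controls, with 4.76, 1.58, 2.17 and 2.64 CPM. It had 4.83, 2.43, 6.63 and 1.78 CPM in group A and 4.62, 4.22, 1.28 and 3.45 CPM in group B, so the groups overlapped. Its log2 fold change was 0.48 (standard error 0.82, edgeR adjusted p = 0.796) in group A and 0.28 (standard error 0.82, edgeR adjusted p = 0.888) in group B.

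Proportions of mRNA between heavy and light chains, and between alternative chains, were compared within each kidney. The log2 ratio of Slc7a5 to Slc7a8 was -5.25 ± 0.70 (SD, n = 4) in the controls, -1.18 ± 0.999 in group A and -2.25 ± 0.35 in group B, a shift of 4.08 and 3.01. The ratio of the heavy chains, Slc3a2 to Slc3a1, shifted from -2.44 ± 1.16 (SD, n = 4) to 2.17 ± 1.22 in group A and 0.94 ± 0.69 in group B. In mRNA, both basolateral light chains that fell became scarcer against Slc3a2, which did not pass the test by itself. Slc7a7 to Slc3a2 changed by -3.83 in group A and -3.74 in group B, and Slc7a8 to Slc3a2 by -3.02 and -2.18. For each of these 4 ratios, no ischemic kidney overlapped with a control (exact permutation p = 0.0286 in each ischemic group). For Slc7a5 to Slc7a8 this restates the single genes. Every ischemic kidney was above all controls for Slc7a5 and below all controls for Slc7a8. In all, 7 ratios were compared in 3 contrasts, which makes 21 comparisons, and a p of 0.0286 became 0.0462 after Benjamini-Hochberg adjustment over them (exact permutation tests). Slc7a13 to Slc3a1 depends on the pseudocount, since Slc7a13 was at the floor in 6 of the 8 ischemic kidneys, and is not interpreted.

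**Figure D3:**
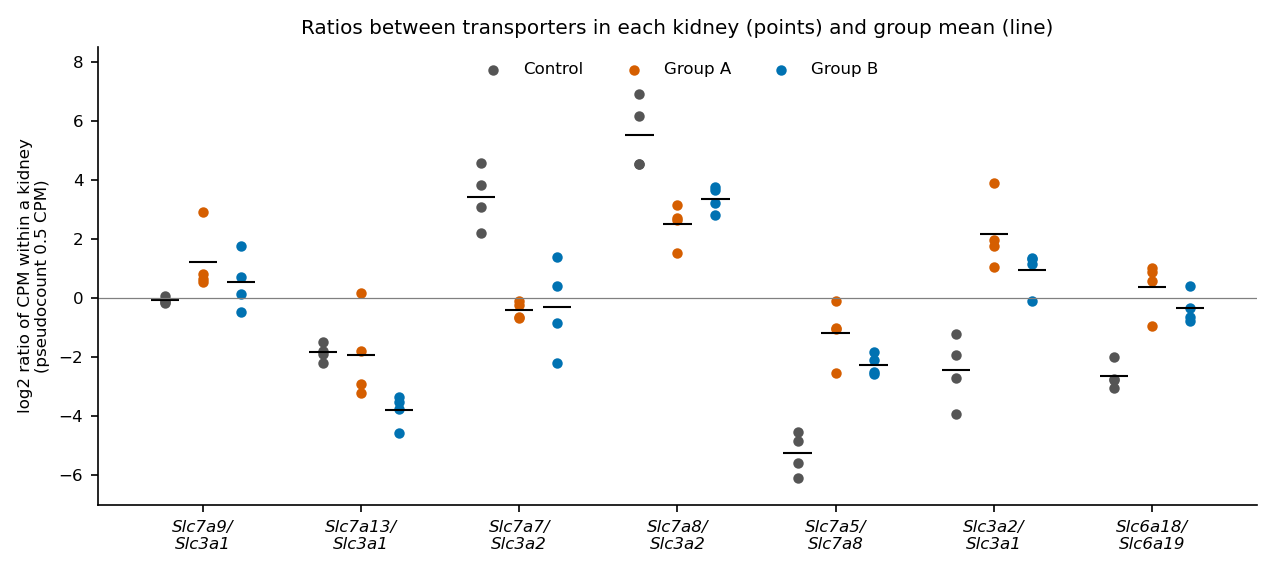
Log2 ratio of CPM between 7 pairs of transporters within each kidney (points, pseudocount 0.5 CPM) and the mean of each group (lines). For Slc7a7/Slc3a2, Slc7a8/Slc3a2, Slc7a5/Slc7a8, Slc3a2/Slc3a1 and Slc6a18/Slc6a19 the control points do not overlap with those of either ischemic group.

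Levels of different genes were ordered as CPM per kb of merged exons. In the controls, Slc7a8 came first with 62.1 ± 7.49 CPM per kb (SD, n = 4), without overlap with the next gene, Slc7a7 with 21.9 ± 5.18. Slc3a1 (15.97 ± 2.94), Slc6a19 (15.2 ± 0.98) and Slc7a9 (12.8 ± 1.61) followed, and neighbours from Slc7a7 down to Slc7a9 overlapped. Below a gap came Slc7a13 (4.62 ± 1.13), Slc6a18 (2.77 ± 0.81), Slc3a2 (2.26 ± 1.73), Slc7a5 (2.24 ± 1.04) and Slc1a5 (0.67 ± 0.33), again with overlap between neighbours. In group A, Slc7a5 took second place with 11.8 ± 6.85 CPM per kb (SD, n = 4) and overlapped Slc7a8 with 18.2 ± 5.13. Slc3a2 (4.48 ± 1.53) and Slc6a18 (3.48 ± 0.58) came next, beside Slc7a7 (3.45 ± 0.62), and neighbours overlapped all the way down to Slc7a13 (0.28 ± 0.32). In group B, Slc7a8 (28.0 ± 5.46) did not overlap with Slc7a5 (7.89 ± 1.82), and the genes from Slc7a5 to Slc3a1 (3.10 ± 1.52) overlapped with their neighbours.

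Shares of the summed CPM per kb were taken among Slc7a5, Slc7a7 and Slc7a8, the light chains of Slc3a2 within the 10 transporters. Slc7a5 held 2.55% ± 1.05 (SD, n = 4) in the controls, 34.3% ± 14.5 in group A and 20.0% ± 4.27 in group B. The highest share was 52.2%, in group A replicate 1, where it exceeded the 41.6% of Slc7a8. The share of Slc7a7 was 25.4% ± 5.95 (SD, n = 4) in the controls, 10.9% ± 4.08 in group A and 9.86% ± 6.88 in group B. Slc7a11 and Slc7a6, outside the 10, were not part of this sum, and both rose. In the controls, group A and group B, Slc7a6 had means of 1.67, 5.71 and 5.27 CPM per kb, and Slc7a11 0.03, 1.20 and 1.14. Of the heavy chains, Slc3a2 held 11.7% ± 7.76 (SD, n = 4) in the controls, 73.9% ± 14.7 in group A and 56.1% ± 12.5 in group B.

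**Figure D4:**
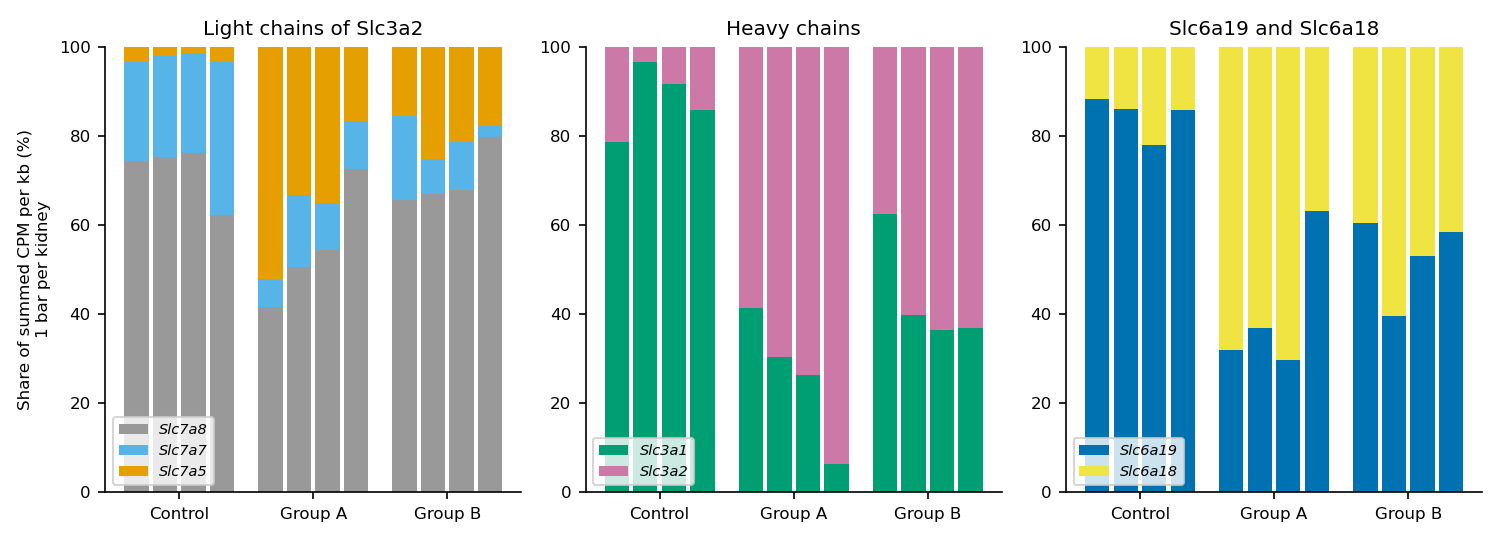
Share of each transporter in the summed CPM per kb of the genes drawn in its panel, with 1 stacked bar per kidney. The panels hold Slc7a8, Slc7a7 and Slc7a5, light chains of Slc3a2 (left), the heavy chains (middle) and Slc6a19 with Slc6a18 (right). In every ischemic kidney Slc7a5, Slc3a2 and Slc6a18 take a larger share than in any control kidney.

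The transporters were also set against the proximal tubule markers of the same kidney, as the log2 level minus the mean log2 level of the 8 markers. On this scale Slc7a7 differed from the controls by 0.17 in group A and 0.33 in group B, and overlapped them in each ischemic group. Slc6a19 differed by 0.10 in group A, with overlap, and by 1.15 in group B, without. Slc3a1 was 0.61 below the controls in group A, with overlap, and 0.68 above them in group B, without. Slc7a9 stood above the controls by 0.69 and 1.30, without overlap. Slc7a8 stood above them by 0.97 in group A, with overlap, and by 1.89 in group B, without. Slc7a13, largely at the floor, is not interpreted here. Slc6a18 stood 3.12 and 3.44 above the controls, Slc3a2 4.00 and 4.07, Slc1a5 3.14 and 3.27, and Slc7a5 5.05 and 4.90, each without overlap in both ischemic groups. The mean log2 level of the markers itself was 7.967 in the controls, 5.195 in group A and 4.919 in group B. A gene with an unchanged level therefore stands above the controls on this scale. The values of Slc6a18, Slc3a2 and Slc1a5, which did not pass against control, are not read as rises. The part of the fall of the markers in the fall of the transporters was not tested.

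Between the ischemic groups, none of the 10 transporters passed edgeR's quasi-likelihood test (smallest adjusted p = 0.930), nor did any with DESeq2 or limma-trend, and 0.00857% of all genes passed in edgeR. At an unadjusted p below 0.05 there were 4 of the 10, against 5.03% of all genes tested. Slc7a8 was higher in group B than in group A by a log2 fold change of 0.62 (standard error 0.19, edgeR unadjusted p = 0.00352), with 3 of the 4 group B kidneys above all of group A. Slc3a1 was 1.01 higher (standard error 0.45, unadjusted p = 0.0369 in edgeR) and Slc6a19 0.75 higher (standard error 0.33, unadjusted p = 0.0363 in edgeR). For Slc7a13 the unadjusted p was 0.00486 in edgeR, with group B lower and a log2 fold change that ran from -6.94 to -1.90 under the alternatives. None of these 4 passed the exact permutation test on CPM between the ischemic groups (p = 0.0571 for Slc7a8, 0.114 for Slc3a1, 0.2 for Slc6a19 and 0.429 for Slc7a13). For all 10 genes the kidneys of the ischemic groups overlapped, and of all genes tested 2.65% did not.

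The ischemic kidneys varied among themselves. Of the 5 genes that fell and were above the floor (Slc6a19, Slc3a1, Slc7a9, Slc7a7 and Slc7a8), group B replicate 1 was the highest of its group for 3 and the lowest for none, and group B replicate 4 was the lowest for 3. The proximal tubule markers summed to 1321 CPM in the former and 397 CPM in the latter, the highest and the lowest of group B, and the totals were 29905140 and 15367342 counts. Replicate 4 was at the same time the highest of group B for Slc12a1 (542.3 CPM against 126.6 to 188.3), Umod (213.6 against 75.4 to 136.2), Aqp3 (129.0 against 40.2 to 64.9) and Aqp2 (34.5 against 5.18 to 24.9), and it differed most from the others of its group over all genes (chi-square per degree of freedom 89.2 to 136.2, against 48.9 to 62.2 between the other 3). Without this kidney, 6 of the 10 transporters were still called lower and 1 higher in group B. The summed level of the 5 genes was 102.9 to 169.7 CPM in group A and 145.5 to 251.2 CPM in group B, against 498.1 to 573.5 CPM in the controls.

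The wider family was examined through 38 other amino acid transporters, a list also chosen with earlier results of these data known. Of these, 27 passed the filter on low counts. In group A, 10 of them fell and 4 rose, and in group B 8 fell and 4 rose. The 8 genes lower in group B were also lower in group A, and the 4 genes that rose were the same. The median log2 fold change of the 27 genes was -0.89 in group A and -0.70 in group B. The falls were 37.0% and 29.6% of the 27 genes, beside 11.7% and 11.9% of all genes tested, and the rises were 14.8% in each ischemic group, near the 10.5% and 10.9% of all genes. None passed between the ischemic groups in edgeR, with 2 at an unadjusted p below 0.05, 1 called by DESeq2 and none by limma-trend.

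Where the mean log2 CPM reached 1 and the kidneys did not overlap with the controls, the largest falls were those of Slc6a20b, a carrier of imino acids, of Slc15a2, the renal carrier of small peptides (PEPT2), and of Slc6a13, a carrier of GABA and taurine. Slc6a20b had 45.4 to 66.2 CPM in the controls, 0.998 to 6.75 CPM in group A and 3.06 to 8.59 CPM in group B, and its log2 fold change was -4.06 (standard error 0.53) and -3.43 (standard error 0.52). Without group A replicate 1 the former was -4.66. Its close copy Slc6a20a could share reads with it, and how such reads were counted is not stated. Slc15a2 fell from 58.6 ± 10.5 CPM (SD, n = 4) to 7.94 ± 0.55 in group A and 12.2 ± 4.99 in group B. Slc6a13 fell from 536.4 ± 67.1 CPM (SD, n = 4) to 87.8 ± 24.8 and 91.1 ± 29.0. Slc1a1 (EAAC1), the apical carrier of glutamate and aspartate, fell from 156.4 CPM to 36.1 and 38.4 CPM, with log2 fold changes of -2.14 and -2.04. Slc6a15, a carrier of branched-chain amino acids and proline below that level, had 58, 60, 89 and 247 counts in the controls and 0 in every kidney of group A, where it was called lower (edgeR adjusted p = 0.00154), and 39, 25, 5 and 37 counts in group B, where it was not (edgeR adjusted p = 0.566).

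The genes that rose were Slc7a11, Slc7a1, Slc7a6 and Slc38a2. Slc7a11 (xCT), a cystine and glutamate exchanger that also pairs with Slc3a2, had 0, 0, 24 and 34 counts in the controls, 269 to 740 counts in group A and 172 to 474 counts in group B. Its log2 fold change was 5.17 (standard error 0.90, edgeR adjusted p = 2.35e-04) in group A and 5.09 (standard error 0.90, edgeR adjusted p = 2.68e-04) in group B. Without control replicate 4 these were 5.77 and 5.68, and limma-trend gave 5.95 in group A. Slc7a6 (y+LAT2), the relative of Slc7a7 found in many tissues, had 7.65 ± 2.03 CPM (SD, n = 4) in the controls, 26.1 ± 11.5 CPM in group A and 24.1 ± 13.2 CPM in group B. Slc7a1, a carrier of basic amino acids, rose by a log2 fold change of 1.92 in group A and 1.99 in group B. Its call was lost in group A without control replicate 1 or 4 or without group A replicate 2 or 3 (edgeR adjusted p 0.0537 to 0.0712), and in group B without control replicate 1 or 4 or without group B replicate 4 (0.0509 to 0.0904). Slc38a2 (SNAT2), a sodium-dependent glutamine and alanine carrier, went from 76.0 ± 17.1 CPM (SD, n = 4) to 196.7 ± 31.0 and 188.0 ± 53.3. In group B single kidneys overlapped with the controls for Slc7a1 and Slc7a6.

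**Figure D5:**
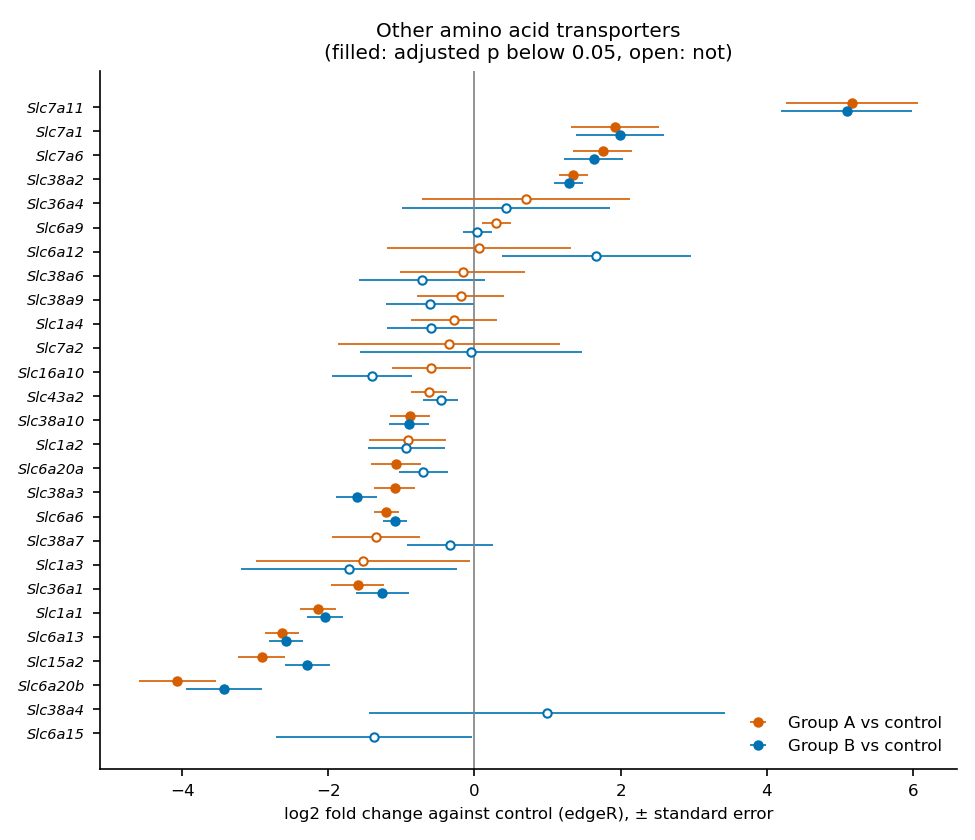
Log2 fold change against control of the other amino acid transporters that passed the filter on low counts, fitted by edgeR, in group A and group B, with bars of 1 standard error (filled points passed the threshold). Slc6a15 and Slc38a4 are drawn for group B only, since they were at the floor in all 4 kidneys of group A. Slc7a11, Slc7a1, Slc7a6 and Slc38a2 are the filled points to the right of 0.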

How the data were processed

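The mRNA of 12 mouse kidneys was measured by RNA-seq. The authors prepared stranded libraries and sequenced single reads, which were mapped to mm10 by STAR and tabulated by gene with HTSeq. The authors deposited unnormalized raw counts, 23420 genes by 12 columns. Tool versions, the strand setting of the counting and its annotation release are not given in the sources used here.

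The counts were fitted in edgeR 4.0.16 (R 4.3.3). Its filterByExpr step (minimum count 10, minimum total 15) passed 11664 genes, and TMM factors scaled the libraries. All 12 kidneys entered 1 fit with a coefficient per group, and the 3 contrasts were each tested by the two-sided quasi-likelihood F-test, adjusted by Benjamini-Hochberg over all genes tested at a threshold of 0.05. CPM was computed on the counted totals, and CPM per kb used the merged exon length of GENCODE M21. A kidney with 3 counts or fewer of a gene was taken as at the floor. Single members and 7 log2 ratios between members (pseudocount 0.5 CPM) were compared with two-sided exact permutation tests (SciPy 1.17.1), for which 0.0286 is the smallest p that 4 kidneys against 4 can give. These p-values are unadjusted unless stated. Intervals and floors cover counting error only. The procedure was also run on simulated counts, and the outcome of that run is not given here.

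The members and the lists were chosen with earlier results of these data known. Named genes were the 10 members, the partner Tmem27, and from the list of other amino acid transporters the 3 largest rises and 3 largest falls in each contrast (past the threshold, mean log2 CPM of at least 1, no overlap between groups). One further gene of the rule is not reported here. Genes named beyond these were chosen after their values were seen. Alternatives were DESeq2 1.42.0, limma-trend (limma 3.58.1), RLE factors, other filters on low counts, a fit without the uninvolved group, a block for the replicate number, other pseudocounts and leaving out each kidney. Leaving out each kidney from the pooled Slc7a13 ratio was chosen after seeing the data. Promoter sequences are RefSeq windows of GRCm38.p6. Figures were drawn with matplotlib 3.10.9.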

Additional observations from a re-analysis of the deposited data

Results flagged for a closer look

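In group B, Slc6a19 in replicate 1 stood apart from the other kidneys of its group, with 35.7 CPM against 15.8 to 17.8 CPM. Slc7a13 was flagged too in this kidney, at 0.0334 CPM, which is a single count beside 0 in the others. Its gap fills the whole range by construction, so this flag says nothing about the kidney. For genes above the floor, a gap above 0.829 of the range of 4 kidneys (Dixon's critical value) is found by chance in about 1 of 20 groups. In all, 30 groups of 4 kidneys were looked at.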

How the results depend on the processing

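The numbers of transporters called in each contrast were the same under RLE factors, DESeq2, limma-trend, both other filters on low counts, a fit of the 2 groups compared and the replicate block. With single kidneys left out, the count of lower genes in group A ranged from 5 to 6, the gene lost being Slc7a13 without a control. Between the ischemic groups, leaving out single kidneys put the log2 fold change of Slc6a18 between -0.0567 and 0.29, turning it negative without group B replicate 1 (-0.02) or 2, that of Slc7a7 between -0.32 (without group B replicate 1) and 0.70, and that of Slc1a5 between -0.43 and 0.16 (without group A replicate 3), also positive (0.08) without group B replicate 3. Limma-trend put Slc7a7 at -0.15. None of these passed in any fit. Slc7a13 in group A moved from -4.10 to -4.95 without group A replicate 2, -5.02 with limma-trend and -5.22 with the replicate block. The replicate block left 6 transporters lower and 1 higher in each ischemic group against control. The same-numbered kidneys share only a number: the correlations of their deviations from the group means lay between -0.0554 and 0.0452, and 2 of the 12 kidneys correlated best with their own number. Comparing group B with group A, DESeq2 called 1 of the other transporters higher. Of the 7 ratios, 1 passed between the ischemic groups (Slc7a13 to Slc3a1), and 0 passed with raw counts and a pseudocount of 1 count. For Slc7a13 the depth sets the floor, since 3 counts are up to 0.195 CPM. The group A kidneys also differed among themselves, with 0, 31, 0 and 17 counts. Over all genes, group B was called higher than group A for 1 gene and lower for 0, against 5 and 1 with no filter on low counts and 14 and 13 with DESeq2.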
